A study of Homo sapiens with 6 samples.

Results

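Transcripts of 9 genes for iron uptake, iron storage, iron sensing, heme breakdown and iron-sulfur assembly were examined in DND41, an established line of human T-cell acute lymphoblastic leukaemia, after treatment with MB1-47 or with its solvent DMSO. The genes were taken by symbol: TFRC, FTH1, FTL, NCOA4, IREB2, ACO1, HMOX1, HMOX2 and ISCU. Of the 9, 8 matched a row among the 17202 genes of the table and were tested, and HMOX1 was not analysed here. The series title describes MB1-47 as a mitochondrial uncoupling drug, that is, a compound that lets protons cross the inner mitochondrial membrane without ATP being made. Both groups were cells of the same line in serum-containing medium for 24 h, with 3 libraries each. The dose of MB1-47 is written as 4 mM in the labels, and this unit was not checked. Cells were plated in triplicate and no label ties the replicates to independent cultures; p-values here cover only library-to-library spread, part of which may be technical. The results describe 1 cell line at 1 dose and 1 time.

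Cells take up iron bound to transferrin through the transferrin receptor, encoded by TFRC. Iron that is not used at once is stored in ferritin, a shell of heavy (FTH1) and light (FTL) chains, and NCOA4 carries ferritin to the lysosome when iron is needed. The iron regulatory proteins ACO1 and IREB2 bind hairpins called iron-responsive elements when iron is scarce: elements in the 3′ untranslated region of TFRC then protect its mRNA from decay, and elements in the 5′ untranslated region of ferritin mRNAs then block translation. Heme oxygenases (HMOX1, inducible, and HMOX2, constitutive) release iron from heme. ISCU is the scaffold in mitochondria on which iron-sulfur clusters, cofactors of the respiratory chain and of many other enzymes, are built.

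The hairpins of TFRC, FTH1 and FTL are shown because they are what ties these mRNAs to the iron sensors. GENCODE 29 transcripts on GRCh38 were searched on the transcript strand only for the loop letters CAGTGN, preceded by 5 bases that had to pair with the 5 bases after the loop, G with T allowed, and by an unpaired C before those. Each stretch below is 27 bases long, with the loop in capitals.
TFRC element 1: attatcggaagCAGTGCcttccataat
TFRC element 2: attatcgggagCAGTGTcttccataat
TFRC element 3: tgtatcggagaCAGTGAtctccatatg
TFRC element 4: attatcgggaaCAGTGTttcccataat
FTH1: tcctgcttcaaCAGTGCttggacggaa
FTL: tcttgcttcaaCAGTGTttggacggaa
The 4 TFRC stretches lie in its 3′ untranslated region on the minus strand, in order at chr3:196050980-196051006, chr3:196050576-196050602, chr3:196050511-196050537 and chr3:196050464-196050490, and any pair of them differed at 2 to 10 bases. The FTH1 stretch (chr11:61967575-61967601, minus strand) and the FTL stretch (chr19:48965336-48965362, plus strand) lie in the 5′ untranslated regions and differed from each other at 2 of 27 bases. Of 19940 protein-coding genes, 397 (1.99%) held such a stretch in any transcript, so a match describes letters and is no proof of a working element. The search also misses elements with other loop letters or an unpaired base in the arms. The TFRC numbers therefore count matches and may not cover all its elements.

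After MB1-47, 3 of the 8 measured genes were higher (FTL, NCOA4 and ISCU), 3 were lower (TFRC, IREB2 and HMOX2), and 2 (FTH1 and ACO1) did not pass an adjusted p of 0.05 in limma. Over all 13465 genes tested, 38.1% passed, 18.3% higher and 19.8% lower, and the share among the 8 genes was 75.0%. No test compares these shares, and the genes were chosen with earlier results of these data known. The groups did not overlap in the same 6 genes, against 49.3% of all genes tested. The median log2 fold change of the 8 genes was -0.03, beside 0.02 for all genes tested. TFRC and HMOX2 were the 2 of the 8 that passed the test and changed at least 2-fold, and 10.7% of all genes tested met both conditions.

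**Figure D1:**
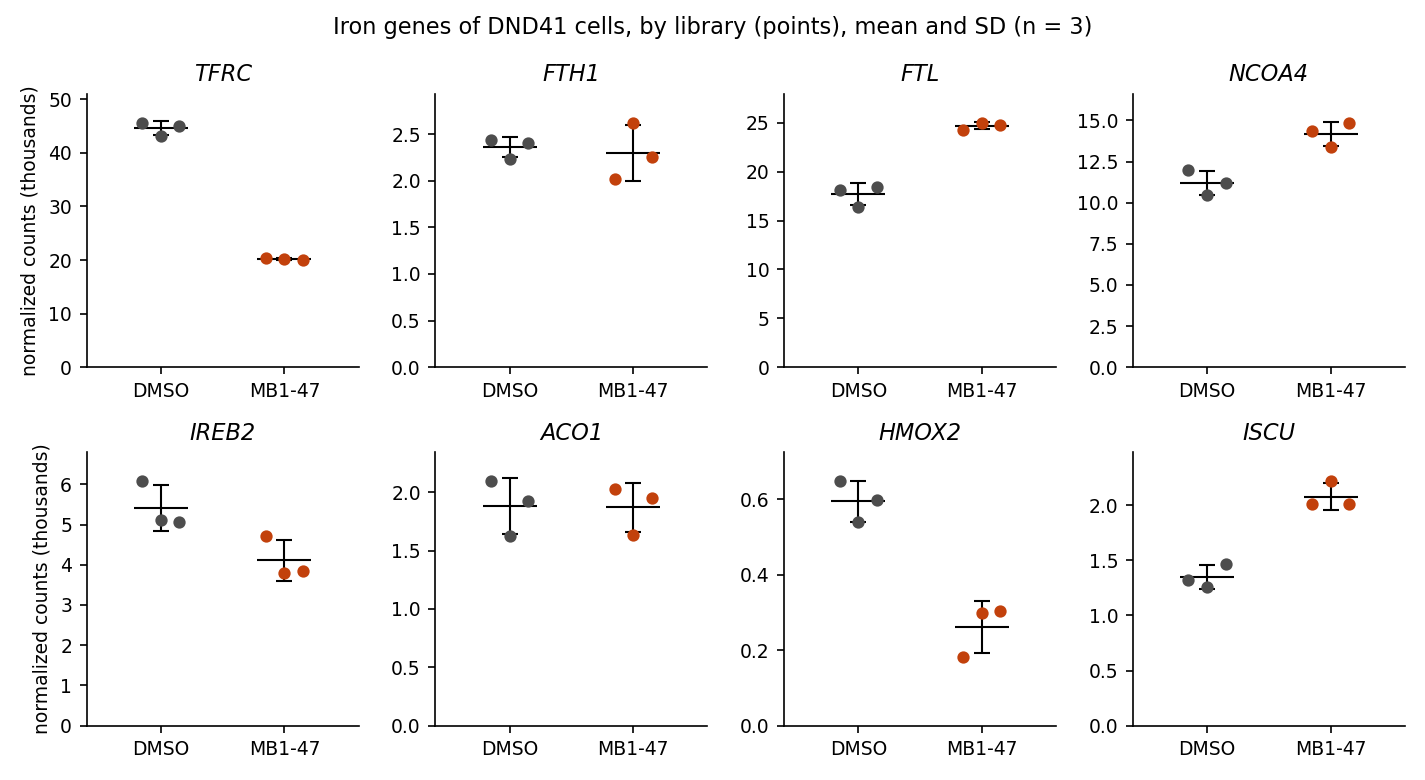
Normalized counts (vertical axes, scaled as labelled and starting at 0) of the 8 genes in each library, with DMSO in grey and MB1-47 in orange; points are libraries, and the long bar and whiskers are the mean and SD of 3. The MB1-47 libraries of TFRC lie between 19974 and 20296, below all DMSO libraries. Those of FTH1 reach above and below the range of the DMSO libraries, and those of ACO1 lie within it.

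The table gives 1 normalized count per gene and library. Library totals lay between 28323700 and 32667500, which after normalization says nothing of depth. Low values were not whole multiples of a step in enough genes to recover reads (58.3% to 64.3% of them within 0.1 of a multiple), so the depth is unknown and no counting interval is given. DMSO replicate 1 stood apart from the other DMSO libraries on the second principal component, which held 18.5% of the variance. Calls split into 2458 higher and 2667 lower, with a median log2 change of 0.02; under scaling to equal library totals they split into 3335 and 2063, with a median of 0.15. Changes below are therefore relative to the bulk of transcripts, and in bulk RNA fewer cells of a type and less RNA per cell cannot be told apart. Of 12 T-lineage markers 11 were matched, among them CD3D, CD3E, CD3G, CD7 and TLX3, with CD2 and CD5 below 80 normalized counts in every library. Their summed level ran from 55140 to 59001 with DMSO and from 31889 to 36291 with MB1-47. Of these 11 markers, 6 passed as lower and none as higher, beside 19.8% lower and 18.3% higher among all genes tested. TLX3 ran from 1265 to 1569 with DMSO and from 1480 to 2644 with MB1-47. The part of the summed level in the results below was not tested. The 5 matched erythroid markers, whose lineage handles the most iron, summed to 129 to 228 with DMSO and 235 to 322 with MB1-47, and neither of the 2 that could be tested passed, and the 2 matched myeloid markers summed to at most 22.9 in any library. The 5 matched B-lineage markers, nearly all of it CD79A, summed to 16813 to 18078 with DMSO and 7554 to 8473 with MB1-47. Among these 5, 1 passed as lower and 1 as higher, beside 38.1% of all genes tested called in either direction. EBF1 ran from 695 to 903 with DMSO and from 944 to 1246 with MB1-47.

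TFRC, the receptor that brings transferrin-bound iron into the cell, had the largest estimated fall of the set after HMOX2. The gene lies at chr3:196027183-196082189 on the minus strand. It stood at 45621, 43121 and 45109 normalized counts in DMSO replicates 1 to 3 and at 20296, 20209 and 19974 in the MB1-47 replicates. The MB1-47 libraries were far below the lowest DMSO library and lay close together, with an SD of 167 around 20159 against 1320 around 44617 with DMSO (n = 3). The log2 fold change was -1.15 ± 0.07 (SE), a 2.21-fold lower level with an adjusted p of 7.94e-07. By size of change TFRC ranked 1792 among the 13465 genes tested. Its change stayed between -1.17 and -0.89 over 15 alternative settings and passed the threshold in each of them.

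The 5 genes whose profile over the 6 libraries lay closest to that of TFRC, among 10239 with a mean of at least 100, included SUPT16H, AHSA1, MCM7 and PTMA. Likeness was measured as the root mean square distance between log2 values after subtracting each gene's DMSO mean, and ran from 0.0254 for SUPT16H, a histone chaperone subunit, to 0.0480 for PTMA. SUPT16H went from 17671 ± 129 to 7911 ± 168 normalized counts (mean ± SD, n = 3). MCM7, a subunit of the replicative helicase, went from 24000 ± 745 to 11127 ± 394. Such closeness follows largely from a like difference between the groups.

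Among the other genes of iron entry and exit, results went both ways and most did not pass. Of 15 genes in the list for uptake, endosomal release and export, 8 were tested, TFRC included. Of these, 3 were lower, TFRC among them, 1 was higher and 4 did not pass (median -0.11). The share called was 50%, beside 38.1% of all genes tested. SLC39A14, a zinc transporter that also carries iron not bound to transferrin, fell from 4720 ± 146 to 2523 ± 39.4 normalized counts (-0.90 ± 0.08, adjusted p = 1.245e-05). SLC40A1, which encodes ferroportin, the iron exporter, fell from 1497 ± 170 to 1134 ± 50.8 (-0.39 ± 0.12, adjusted p = 0.024). That call was lost without DMSO replicate 1 (adjusted p = 0.086), without DMSO replicate 3 (0.074), without MB1-47 replicate 1 (0.075), with equal library totals (0.084) and without a trend (0.052). LRP1, a receptor of many ligands including heme bound to hemopexin, was higher at 281 ± 114 against 144 ± 43.6, and its adjusted p of 0.043 rose to between 0.052 and 0.173 in 5 of 15 settings, 4 of which left out DMSO replicate 2, DMSO replicate 3, MB1-47 replicate 1 or MB1-47 replicate 2. SLC11A2 (added after its values were seen), which moves iron out of the endosome, stood at 3030 ± 310 and 3493 ± 298 and did not pass (adjusted p = 0.15), though it did with equal totals (0.33, adjusted p = 0.023). The hormone gene HAMP, the receptor gene TFR2 and the reductase genes STEAP2 and STEAP3 had means below 10 normalized counts and were not tested.

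The ferritin chains did not change alike. FTL, the light chain (chr19:48965301-48966878, plus strand), stood at 18171, 16410 and 18481 normalized counts in the DMSO libraries and at 24310, 24996 and 24745 in the MB1-47 libraries. Every MB1-47 library was above every DMSO library, and the log2 fold change was 0.48 ± 0.07, with an adjusted p of 0.00042. FTH1, the heavy chain that oxidises iron for storage (chr11:61959718-61967660, minus strand, overlapping BEST1 on the opposite strand), stood at 2434, 2238 and 2406 with DMSO and at 2016, 2622 and 2258 with MB1-47. The 2 groups of FTH1 overlapped, and its log2 fold change of -0.04 had a 95% interval from -0.29 to 0.20. An FTH1 rise as large as the FTL estimate lies outside that interval. FTH1 passed the threshold in none of the 15 alternative settings, and its sign was positive with equal library totals and without MB1-47 replicate 1.

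A single scaling factor per library cancels in a ratio within that library. Quantile normalization is not such a factor, and under it FTL changed by 0.72 and FTH1 by -0.04 on the log2 scale; the ratio itself was not recomputed there. The ratio of FTL to FTH1 was 7.46, 7.33 and 7.68 in the DMSO libraries and 12.1, 9.53 and 11 in the MB1-47 libraries. Its log2 mean went from 2.91 ± 0.034 in the DMSO libraries to 3.43 ± 0.17 after MB1-47 (SD, n = 3), a difference of 0.53. The groups did not overlap, and the exact two-sided permutation p was 0.1, the smallest that 3 libraries against 3 can give (0.1 after adjustment over 2 ratios). The values are not per length, so the ratio shows an unequal change and not the chain composition of ferritin.

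**Figure D2:**
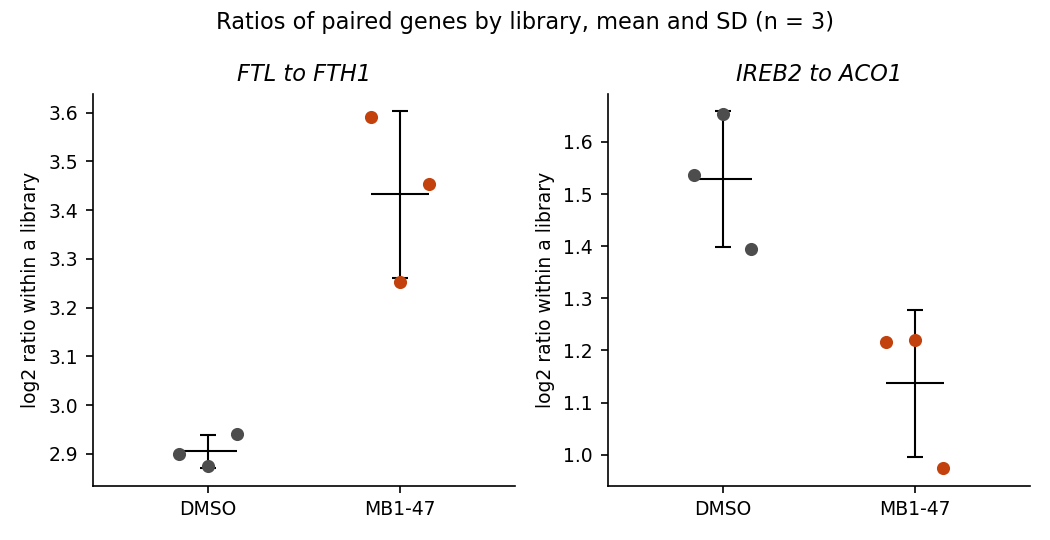
Log2 ratio (vertical axes) of FTL to FTH1 (left) and of IREB2 to ACO1 (right) within each library, DMSO in grey and MB1-47 in orange, with the mean and SD of 3. The FTL to FTH1 ratio was higher in every MB1-47 library, by 0.53 on average, and the IREB2 to ACO1 ratio lower in every one, by 0.39.

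Both ferritin genes have processed copies elsewhere in the genome. In GENCODE 29, 27.1% of the 31-base words of FTH1 transcripts and 33.3% of those of FTL also occur in transcripts of other genes, mainly pseudogenes such as FTH1P10 and FTLP3. These are shares of distinct words and not of reads. How many reads of FTH1 and FTL were assigned to copies was not measured, so the values of both carry that uncertainty. The table held 4 rows for pseudogenes of these genes, none above 17.9 normalized counts in any library.

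NCOA4, the receptor that delivers ferritin to autophagy (chr10:46005088-46030714, minus strand), rose. It stood at 11968, 10477 and 11171 normalized counts with DMSO and at 14327, 13410 and 14852 with MB1-47, with no overlap. The log2 fold change was 0.34 ± 0.08 (adjusted p = 0.0063), which is 1.27-fold, and was 0.52 with quantile normalization. Of its 31-base words 13% occur in other genes, mainly its own pseudogenes. Of the 6 tested genes of storage and cytosolic iron delivery, 2 were higher (FTL and NCOA4), 1 lower and 3 did not pass. This made 50% called, beside 38.1% of all genes tested. The lower one was PCBP1, an RNA-binding protein that also hands iron to ferritin, which went from 4338 ± 309 to 3434 ± 356 (-0.34 ± 0.10, adjusted p = 0.022). PCBP1 lost its call with equal totals (-0.21, adjusted p = 0.13), without a trend (0.081), without DMSO replicate 3 (0.096), without MB1-47 replicate 1 (0.090) and without MB1-47 replicate 3 (0.053). HERC2, a ubiquitin ligase known to act on NCOA4, stood at 2391 ± 579 and 2698 ± 720 and did not pass.

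Of the iron sensors, IREB2 was lower and ACO1 was not called. IREB2, which encodes iron regulatory protein 2 (chr15:78437431-78501456, plus strand), stood at 6074, 5103 and 5072 normalized counts with DMSO and at 4703, 3806 and 3834 with MB1-47. The groups did not overlap, though MB1-47 replicate 1 came close to the lower DMSO libraries. The log2 fold change was -0.40 ± 0.11 with an adjusted p of 0.015. This call was lost without DMSO replicate 1 (-0.31, adjusted p = 0.058), without MB1-47 replicate 3 (-0.35, 0.064), with equal totals (-0.27, 0.059) and without a trend (0.078). ACO1, which encodes iron regulatory protein 1 and also serves as the cytosolic aconitase (chr9:32384603-32454769, plus strand), stood at 2093, 1621 and 1929 with DMSO and at 2024, 1632 and 1950 with MB1-47. Its values covered the same range in both groups, and the log2 change of -0.01 had a 95% interval from -0.29 to 0.28, with a sign that turned in 6 of 15 settings.

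The log2 ratio of IREB2 to ACO1 was 1.54, 1.65 and 1.39 in the DMSO libraries and 1.22, 1.22 and 0.98 in the MB1-47 libraries, a difference of -0.39. The groups did not overlap (exact two-sided permutation p = 0.1, again the smallest possible, and 0.1 adjusted).

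The ligase that removes IREB2 protein when iron is plentiful is built from FBXL5, SKP1 and CUL1, and these 3 moved in opposite directions. FBXL5, the subunit that binds iron and IREB2, rose from 2846 ± 309 to 4596 ± 441 normalized counts (0.69 ± 0.11, adjusted p = 0.00050). SKP1 fell from 7357 ± 643 to 4324 ± 102 (-0.76 ± 0.09) and CUL1 from 5062 ± 285 to 3658 ± 205 (-0.47 ± 0.09). SKP1 and CUL1 also serve many other ligases. All 3 kept their calls in every one of the 15 settings.

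**Figure D3:**
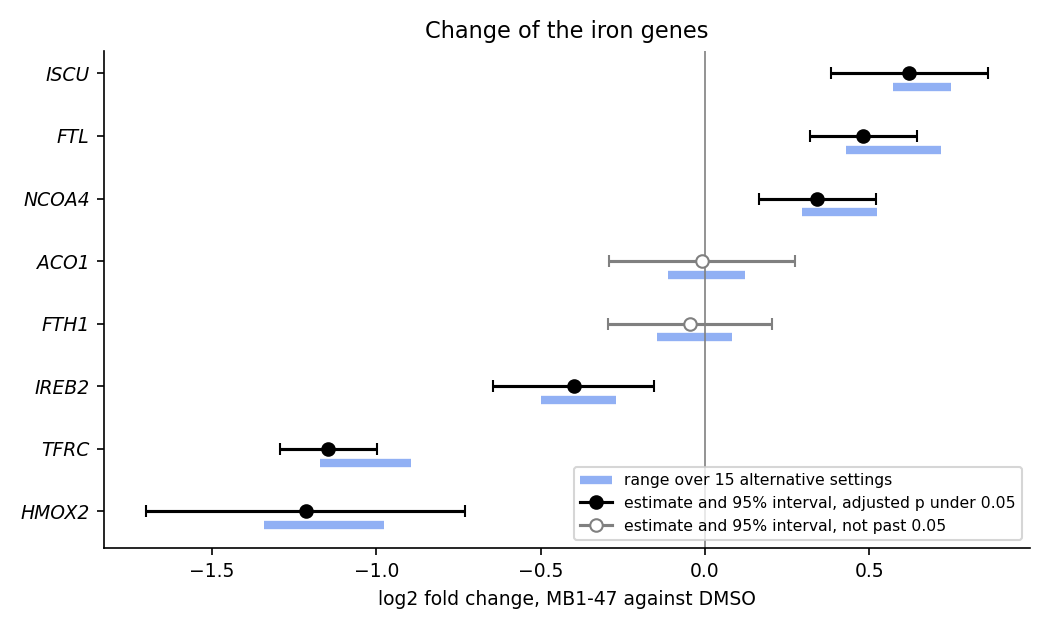
Log2 fold change of the 8 genes (horizontal axis) with its 95% interval; filled black points passed an adjusted p of 0.05 and open grey points did not, and the blue bar below each is the range over 15 alternative settings. The blue bars of FTH1 and ACO1 reach both sides of 0, and those of the other 6 genes do not.

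Among 10 transcripts reported to carry an iron-responsive element, 8 were tested, of which 1 was higher (FTL), 4 lower and 3 not past the threshold. The list median was -0.22, and 62.5% were called beside 38.1% of all genes tested. The lower ones included TFRC, SLC40A1 and EPAS1. EPAS1, a hypoxia-inducible factor, fell from 519 ± 67.1 to 286 ± 68.2 (-0.88 ± 0.21). The element was found by its letters in 7 of the 10. Elements of the 5′ type act on translation in textbook accounts, which mRNA levels do not measure.

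HMOX2, the constitutive heme oxygenase, had the largest estimated fall among the 8 genes. Its order with TFRC turned without MB1-47 replicate 1 (-0.98 for HMOX2 and -1.15 for TFRC). HMOX2 stood at 647, 539 and 597 normalized counts with DMSO and at 182, 298 and 304 with MB1-47. All MB1-47 libraries were below all DMSO libraries, and MB1-47 replicate 1 was the lowest. The log2 fold change was -1.22 ± 0.22, a 2.32-fold lower level with an adjusted p of 0.0012, and it lay between -1.34 and -0.98 over the 15 settings. On the genome HMOX2 (chr16:4474690-4510347, plus strand) overlaps NMRAL1 on the opposite strand. The libraries were strand-specific, but whether strand was used in counting is not given in the sources used here. The biliverdin reductases, which act after heme oxygenase, did not pass: BLVRA (added after its values were seen) stood at 371 ± 50.5 and 258 ± 43.5 (adjusted p = 0.067), and BLVRB (likewise added) at 114 ± 43.8 and 45.9 ± 30.4 (-1.55 ± 0.63, adjusted p = 0.076). The BLVRB change was -0.76 without MB1-47 replicate 1 (adjusted p = 0.22) and -2.01 without MB1-47 replicate 2 (adjusted p = 0.040). Of 4 tested genes of heme breakdown HMOX2 was the only one called (25%, beside 38.1% of all genes tested).

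Heme synthesis genes also split. Of 17 tested genes of heme synthesis and transport, 2 were higher, 4 lower and 11 not past the threshold, with a list median of -0.14. The called share was 35.3%, close to the 38.1% of all genes tested. ALAS1, which catalyses the first step, rose from 902 ± 110 to 1267 ± 104 (0.49 ± 0.13, adjusted p = 0.013, and 0.051 without MB1-47 replicate 3). PPOX, an enzyme near the end of the pathway, rose from 393 ± 25.8 to 653 ± 49.5 (0.73 ± 0.15). FECH (added), which inserts iron into the ring, fell from 2727 ± 225 to 1987 ± 250 (-0.46 ± 0.12), ABCB10, a mitochondrial transporter, from 1609 ± 106 to 1134 ± 128, and PGRMC1 (added), a heme-binding protein, from 2355 ± 153 to 1742 ± 31.6.

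ISCU rose while other genes of its pathway fell or did not pass. ISCU (chr12:108562582-108569384, plus strand) stood at 1324, 1256 and 1470 normalized counts with DMSO and at 2006, 2216 and 2006 with MB1-47. The groups were far apart compared with their spread, at 1350 ± 109 and 2076 ± 121 (SD, n = 3). The log2 fold change was 0.62 ± 0.11, which is 1.54-fold, with an adjusted p of 0.00096, and it lay between 0.57 and 0.75 over the 15 settings. None of the 31-base words of ISCU transcripts occurs in another gene of GENCODE 29.

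Of 21 genes of mitochondrial iron-sulfur assembly, all tested, 2 were higher, ISCU among them, 7 lower and 12 not past the threshold (median -0.25). This made 42.9% called, beside 38.1% of all genes tested. Of the partners of ISCU in the assembly complex, NDUFAB1 and LYRM4 went the other way. NDUFAB1, the acyl carrier protein that is also a complex I subunit, fell from 4211 ± 702 to 1957 ± 161 (-1.10 ± 0.13, adjusted p = 5.655e-05). LYRM4 (added), which stabilises the desulfurase, fell from 396 ± 56.4 to 252 ± 77.4 (adjusted p = 0.0495). The LYRM4 call was lost in 11 settings, with adjusted p up to 0.16, among them those without DMSO replicate 1, 2 or 3 and without MB1-47 replicate 1 or 2; its change without MB1-47 replicate 2 was -0.44. NFS1 (added), the desulfurase that supplies sulfur to ISCU, stood at 937 ± 85.3 and 785 ± 88.9 and did not pass (adjusted p = 0.17).

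Later steps and mitochondrial iron import were lower where they passed. BOLA3, which helps place clusters on target proteins, fell from 148 ± 26.9 to 59.2 ± 13.5 (-1.31 ± 0.32, adjusted p = 0.0078). SLC25A37, the mitochondrial iron importer mitoferrin-1, fell from 1137 ± 81.3 to 629 ± 58.1 (-0.86 ± 0.13, adjusted p = 0.00044). GLRX5 (added), a carrier of clusters, fell from 3774 ± 104 to 2813 ± 111 (-0.42 ± 0.09). HSPA9 (added), the chaperone that frees clusters from ISCU and also serves protein import, was at 25318 ± 912 and 21270 ± 1537 (-0.25 ± 0.08, adjusted p = 0.024). With quantile normalization HSPA9 was at 0.0037, with equal totals at -0.12, and it also lost its call without a trend and without DMSO replicate 1, DMSO replicate 3, MB1-47 replicate 2 or MB1-47 replicate 3.

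In the list for cytosolic iron-sulfur assembly, 2 of 14 genes were lower, none was higher and 12 were not past the threshold (median -0.19). The share called was 14.3%, below the 38.1% of all genes tested. GLRX3, a cytosolic glutaredoxin, fell from 4617 ± 466 to 2665 ± 134 (-0.79 ± 0.10, adjusted p = 0.00011). CISD3 fell from 314 ± 19.1 to 109 ± 21.7 (-1.54 ± 0.24, adjusted p = 0.00048) and is known as an iron-sulfur protein of mitochondria rather than a cytosolic assembly factor.

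**Figure D4:**
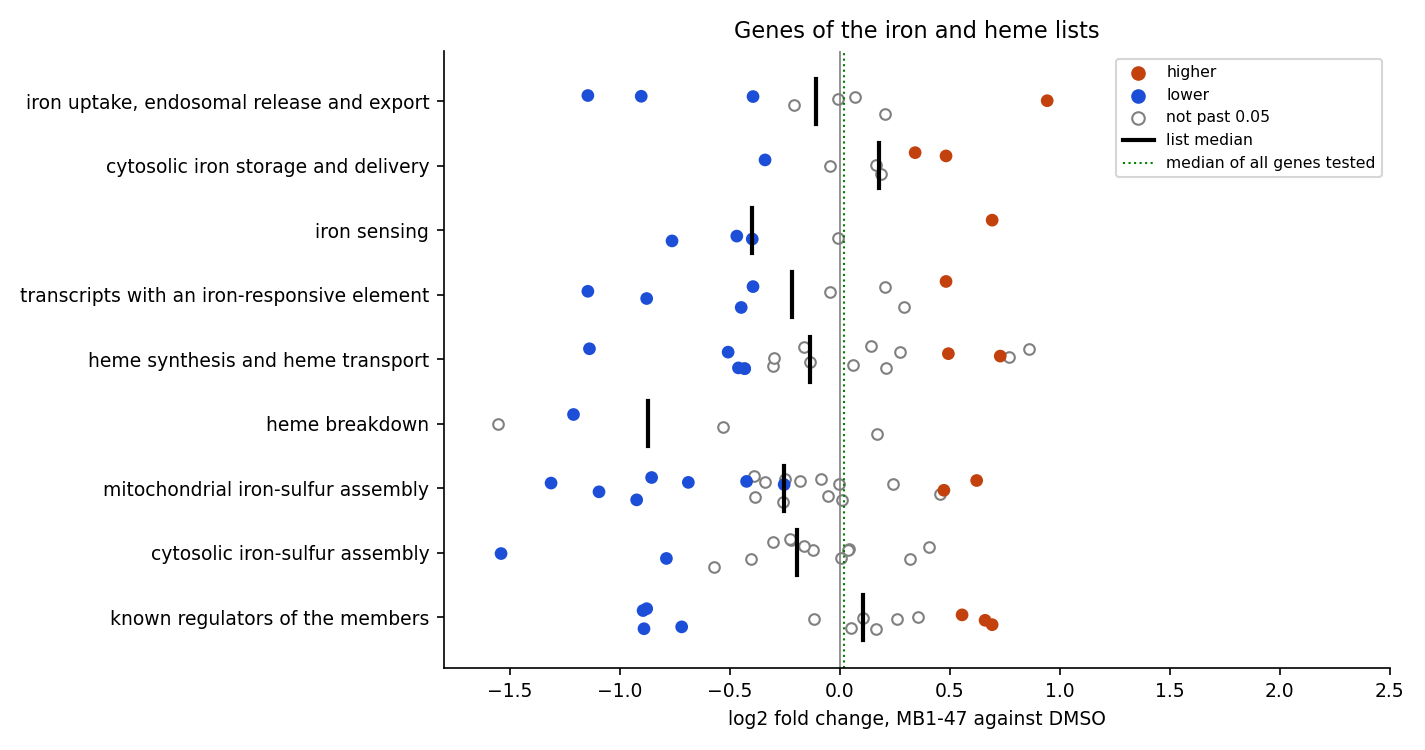
Log2 fold change (horizontal axis) of each tested gene of the iron and heme lists, and of the known regulators, 1 row per list; orange and blue points passed an adjusted p of 0.05 as higher or lower, open points did not, black bars are list medians and the dotted line is the median of all genes tested (0.02). Genes on both sides of 0 passed in most lists, and a gene in 2 lists is drawn in both.

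Over all lists of iron and heme genes together, 78 genes were tested, of which 8 were higher, 23 lower and 47 did not pass. That is 39.7% called, beside 38.1% of all genes tested, with a median of -0.20 beside 0.02. With equal library totals 13 were higher and 18 lower, the additional higher ones being CIAO3, NFU1, PCBP2, SLC11A2 and SLC25A38.

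Of 13 genes known to regulate the set, 3 were higher, 4 lower and 6 did not pass, which is 53.8% called beside 38.1% of all genes tested. NFE2L2, which encodes the NRF2 activator of ferritin and heme oxygenase genes, rose from 1604 ± 78.9 to 2357 ± 65.3 (0.56 ± 0.10), and KEAP1, which targets NRF2 for destruction, fell from 2743 ± 361 to 1474 ± 134 (-0.89 ± 0.12). MAFK, a partner of NRF2 and of the repressor BACH1, fell from 712 ± 37.3 to 435 ± 60.7, while BACH1 itself (2861 ± 401 and 2619 ± 101) and MAFG (3118 ± 118 and 3359 ± 204) did not pass. MYC, known to raise TFRC transcription, fell by 0.89 on the log2 scale. Of the hypoxia factors that can act on TFRC, HIF1A stood at 4028 ± 342 and 4185 ± 525 and did not pass, EPAS1 is given above, and their partner ARNT rose from 1994 ± 117 to 3150 ± 113 (0.66 ± 0.09). ZFP36 and ZFP36L1, which destabilise mRNAs, stood at 276 ± 30.0 and 358 ± 81.9 and at 1336 ± 251 and 1586 ± 97.0 and did not pass. ZFP36L1 did pass without DMSO replicate 1 (0.41 in place of 0.26, adjusted p = 0.026) and with equal totals (0.39, adjusted p = 0.036). The part of these regulators in the changes of the iron genes was not tested.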

How the data were processed

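Total RNA of 6 libraries was sequenced, 3 per group. The submitters' processing notes name kallisto 0.44.0, DESeq and build GRCh38.p13. The sources used here give no annotation, no way of summing to genes and no filter. The authors deposited normalized counts per gene symbol, treated as a signal with no value below 0. Genes with a mean of at least 10 were taken as log2(value + 1), so fold changes understate low genes. limma 3.58.1 in R 4.3.3 compared the groups with an intensity trend, with Benjamini-Hochberg adjustment over 13465 genes and a threshold of 0.05; count tests were not run, since whole reads were not recovered. The steps were tested on simulated data. Alternatives were other pseudocounts, filters, scalings, no trend, a replicate block and each library left out. The members and lists were chosen with earlier results of these data known. The rule for named genes took all members, up to 4 called genes per list with a mean of at least 50, all listed regulators, and the 5 genes most like TFRC (43 genes); 10 were added, named as such. Some of these genes are not reported here. The erythroid markers ALAS2 and TFR2 are also in the iron lists. Positions come from GENCODE 29 on GRCh38, and figures were drawn with matplotlib 3.10.9.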

Additional observations from a re-analysis of the deposited data

How the results depend on the processing

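Of 615 alternative results for named genes past the threshold, 572 kept their direction and call, 42 lost the call and 1 turned (HSPA9, 0.0037 with quantile normalization). The count of iron and heme genes higher was 13 with equal library totals in place of 8. Uncalled genes changed sign as follows. FTH1 was at 0.083 with equal totals and 0.045 without MB1-47 replicate 1. ACO1 was at 0.017 with TMM factors, 0.0017 with quantile normalization, 0.12 with equal totals, 0.074 without DMSO replicate 1, 0.015 without DMSO replicate 3 and 0.087 without MB1-47 replicate 2. BACH1 was at 0.010 with equal totals. Without MB1-47 replicate 1, HIF1A was at -0.011 and HERC2 at -0.031. With 1 library left out at a time, the lowest and highest changes were -0.14 and 0.045 for FTH1, -0.11 and 0.087 for ACO1, -0.011 and 0.16 for HIF1A, and -0.031 and 0.36 for HERC2. The cause was not tested. PTMA changed by -0.44 with quantile normalization in place of -1.15.

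Whether the shared replicate numbers pair the libraries was not settled. Same-numbered deviations correlated at 0.022, 0.057 and 0.0072, and other-numbered ones at -0.062 to 0.034. Of 6 libraries, 3 correlated best with their own number. With the replicate number as a block, the calls were 2531 higher and 2715 lower over all genes, 3 and 3 among the members and 9 and 24 among iron and heme genes. The exact permutation p of both ratios, at 0.53 and -0.39, was then 0.25, the smallest that 3 pairs can give. Leaving out 1 library at a time gave ratio differences of 0.45 to 0.62 for FTL to FTH1 and -0.46 to -0.31 for IREB2 to ACO1, iron and heme counts of 7 to 9 higher and 19 to 24 lower, and member counts of 3 higher and 2 to 3 lower. Count tests with DESeq2 were not run because whole reads were not recovered, and the ratio of HMOX1 to HMOX2 was not run because HMOX1 was not analysed here. The depth is unknown, so no limit from depth can be given.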
